A study of Drosophila melanogaster with 6 samples.

Results

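Among 17606 Drosophila melanogaster genes with a normalized count, 9 were close to undetected in 1 of 2 larval genotypes and clearly detected in the other. A gene was taken when all 3 samples of one genotype held at most 5 normalized counts and all 3 samples of the other held at least 30. A normalized count is the number of reads assigned to a gene, divided by a size factor that corrects for sequencing depth. 15 genes met these thresholds, and 6 of them were set aside by symbol: a Y-linked fertility gene, a cytochrome P450 gene, long non-coding RNAs and small nucleolar RNAs. Of the 9 genes kept, 3 were near absent in ecd1 larvae (Ada1-1, CG33140 and CG8508) and 6 were near absent in w1118 larvae (BomS4, CG31883, CG43055, CR43276, CR44383 and asRNA:CR45822). The genes were chosen by the normalized counts of all 6 samples, so the levels of the 9 genes are described without a test, and tests are given only for other genes.

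Whole third-instar larvae homozygous for ecd1, a temperature-sensitive allele of ecdysoneless (ecd), were compared with w1118 larvae, a strain that carries a null allele of the eye pigment transporter gene white (w). Both genotypes spent 10 days at 18°C and 2 further days at 29°C, and each of the 3 biological replicates per genotype was the total RNA of 8 larvae. Each genotype was represented by 1 strain, so an effect of the ecd allele and any other difference between the 2 strains cannot be told apart, and the sources used here do not say whether the larvae were sexed. The study lists the ecd1 stock as also labelled w, with ecd1 over the balancer chromosome TM6B, and does not name the w allele. The gene w had 2001, 1994 and 1636 normalized counts in ecd1 larvae, against 85.7, 79.0 and 114.7 in w1118 larvae. The gene ecd had 2111, 2218 and 2397 normalized counts in ecd1 larvae and 2085, 1563 and 1565 in w1118 larvae (limma, adjusted p = 0.0769).

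Ecd is a protein needed for production of the moulting hormone ecdysone and for pre-mRNA splicing through the U5 small nuclear ribonucleoprotein. The 9 genes differ in kind, and several have no annotated role. Ada1-1 is annotated as a subunit of SAGA, a complex that acetylates and deubiquitinates histones at promoters. BomS4 belongs to the Bomanins, short secreted peptides that the Toll pathway induces in infected flies. CG43055 is annotated as a galactose-binding protein by likeness to a lectin, CG31883 as an extracellular protein of reproduction, CR43276 and CR44383 are pseudogenes, asRNA:CR45822 is an antisense RNA, and CG33140 and CG8508 are coding genes for which no function is annotated.

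The samples held 78438192 to 118102006 assigned reads in ecd1 larvae and 74581798 to 107943245 in w1118 larvae, and 1 read was worth 0.764 to 1.19 normalized counts. The ecd1 libraries had a mean insert size of 139 ± 0.503 bases and the w1118 libraries of 162 ± 1.37 bases (SD, n = 3 each). Every ecd1 library was below every w1118 library, so an effect of insert size and one of genotype cannot be told apart. w1118 replicate 1 stood apart in the late-larval glue genes and some storage protein genes. Sgs3, a salivary glue protein, had 233485 normalized counts there, against 39.3 and 59.0 in the other w1118 samples and 42.8 to 124 in ecd1 larvae. Among the ecd1 samples replicate 2 stood apart in storage protein genes. Lsp1alpha had 2429 normalized counts there, against 610164 and 82842 in the other ecd1 samples, and Lsp1beta had 340211, against 2967750 and 2305010. Of 12930 genes tested, 2064 were called higher and 2474 lower in ecd1 larvae (limma, a linear model with moderated variances, on log2(normalized count + 1), adjusted p below 0.05), so higher calls made up 45.5% of the calls. With values scaled to the same total per sample that share was 35.0%.

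Low genes were common and few of them were well detected in the other genotype. 3951 genes held at most 5 normalized counts in all 3 ecd1 samples, and 3349 of these were equally low in w1118 larvae. 4 of the 3951 reached at least 30 in every w1118 sample, and the remaining 598 lay between. In w1118 larvae 3727 genes held at most 5 in all 3 samples, of which 11 reached at least 30 in every ecd1 sample and 367 lay between. A single gene, BomS4, had no read in any sample of one genotype and at least 30 normalized counts in every sample of the other.

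**Figure D1:**
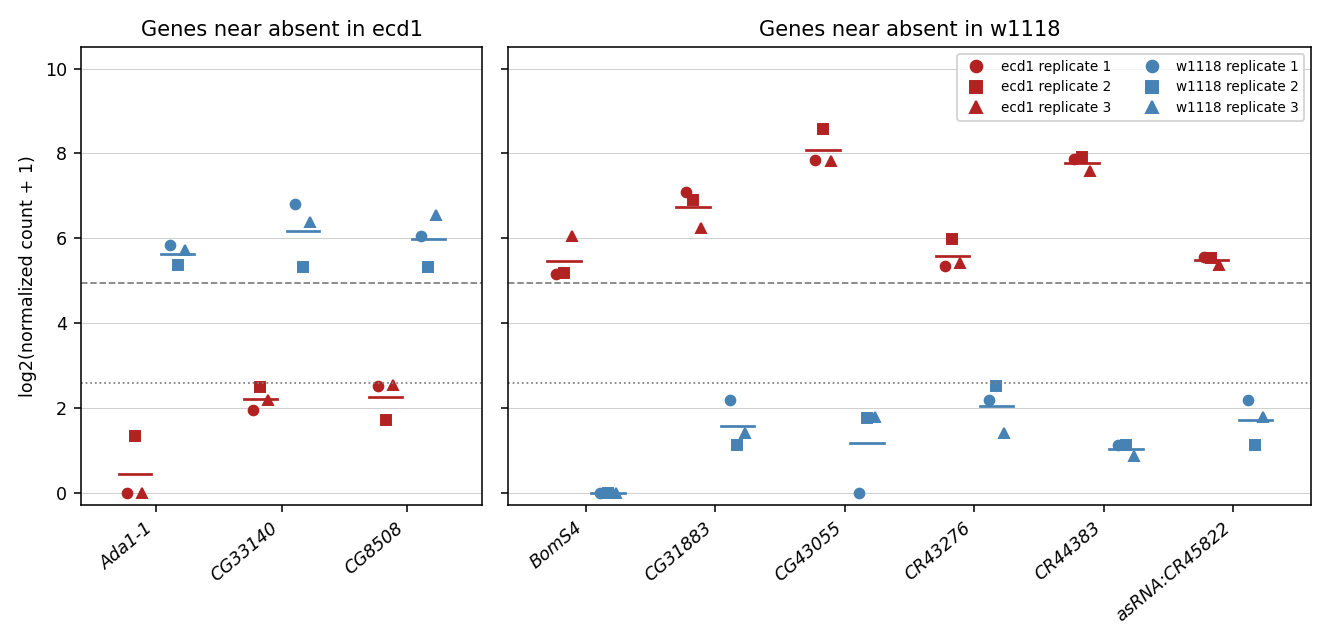
Level of each of the 9 genes in every sample, as log2(normalized count + 1), with ecd1 samples in red on the left and w1118 samples in blue on the right of each gene. Marker shapes give the replicate, short bars the mean of the 3 log2 values, the dotted line 5 and the dashed line 30 normalized counts. BomS4 lies at 0 in all 3 w1118 samples, and CG43055 and CR44383 lie highest, at 190 to 381 normalized counts in ecd1 larvae.

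Of the 3 genes near absent in ecd1 larvae, Ada1-1 was the lowest there. Ada1-1 (FBgn0051865) spans 11996809 to 11997965 on the plus strand of chromosome 2L in BDGP6 and has 2 exons. It had 0, 1.53 and 0 normalized counts in ecd1 larvae, against 55.9, 40.1 and 51.6 in w1118 larvae. The ecd1 value rests on 2 reads, both in replicate 2, against 144 reads in w1118 larvae. Over the summed reads the level in ecd1 larvae was 79.5-fold lower, with a counting interval of 21.6 to 663 (exact, 95%, counting error only). A copy named Ada1-2, annotated as the same SAGA subunit, lies 2754 bases away on the same strand. The sources used here do not give the treatment of reads that match both copies, so the value of Ada1-1 is uncertain to that extent.

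CG33140 and CG8508 kept a few reads in every ecd1 sample. CG33140 (FBgn0053140, 7178390 to 7180730 on the plus strand of chromosome 2R, 1 exon) had 2.83, 4.58 and 3.57 normalized counts in ecd1 larvae, against 111, 38.9 and 82.8 in w1118 larvae. CG8508 (FBgn0038123, 13185526 to 13186496 on the minus strand of chromosome 3R, 1 exon) had 4.71, 2.29 and 4.76 in ecd1 larvae, against 65.5, 38.9 and 91.8 in w1118 larvae. The w1118 samples differed among themselves, by 2.84 times between the highest and the lowest for CG33140 and by 2.36 times for CG8508, while those of Ada1-1 differed by 1.39 times. For all 3 genes w1118 replicate 2 was the lowest of the w1118 samples. Over the summed reads CG33140 was 20.9-fold lower (11.7 to 41.0) and CG8508 18.4-fold lower (10.3 to 36.2) in ecd1 larvae, each on 12 ecd1 reads.

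Among the genes near absent in w1118 larvae, BomS4 was the one with no read. BomS4 (FBgn0034330, 18384567 to 18384911 on the plus strand of chromosome 2R) had 34.9, 35.1 and 65.4 normalized counts in ecd1 larvae, against 0, 0 and 0 in w1118 larvae. A count of 0 over the 3 w1118 libraries allows up to 3 reads, or 1.03 normalized counts. Against that floor the level in ecd1 larvae, from 138 reads, was 41.7-fold higher. The lower end of the exact 95% interval, which is two-sided and so allows more w1118 reads than that floor, was 33.4-fold higher. CG43055 (FBgn0262357, 4411155 to 4411824 on the plus strand of chromosome 2L, 2 exons) had 228, 381 and 226 normalized counts in ecd1 larvae, against 0, 2.36 and 2.46 in w1118 larvae. This was 169-fold higher in ecd1 larvae over the summed reads (72.0 to 521), on 931 against 5 reads. CG31883 (FBgn0032122, 9528515 to 9529648 on the plus strand of chromosome 2L, 1 exon) had 135, 118 and 75.0 normalized counts in ecd1 larvae, against 3.57, 1.18 and 1.64 in w1118 larvae, which was 54.4-fold higher (24.7 to 149).

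The other 3 genes near absent in w1118 larvae do not code for a protein by the annotation. CR44383 (FBgn0265533, 15796477 to 15796897 on the plus strand of the X chromosome), a pseudogene, had 233, 238 and 190 normalized counts in ecd1 larvae, against 1.19, 1.18 and 0.820 in w1118 larvae. Each w1118 value is 1 read, and the level was 217-fold higher in ecd1 larvae (74.0 to 1055). CR43276 (FBgn0262965, 15373240 to 15373750 on the minus strand of chromosome 2R), also a pseudogene, had 39.6, 61.9 and 41.6 normalized counts in ecd1 larvae, against 3.57, 4.72 and 1.64 in w1118 larvae. It was 15.9-fold higher in ecd1 larvae (8.17 to 35.4). The antisense RNA asRNA:CR45822 (FBgn0267472, 7355717 to 7356598 on the plus strand of chromosome 3L) had 46.2, 45.1 and 40.5 normalized counts in ecd1 larvae, against 3.57, 1.18 and 2.46 in w1118 larvae, or 18.4-fold more (8.69 to 46.5). Pseudogenes can share reads with the genes they derive from, and how such reads were counted is not known here. The ecd1 samples were closest to each other for asRNA:CR45822, with 1.14 times between the highest and the lowest, and furthest apart for BomS4, with 1.88 times.

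**Figure D2:**
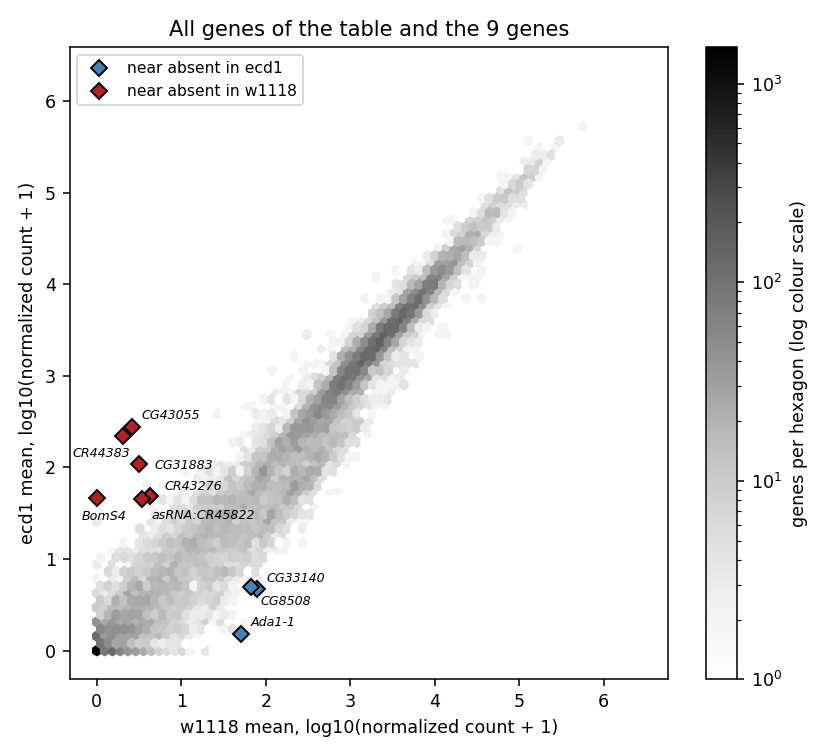
Mean level of every gene of the table in ecd1 larvae (vertical axis) against w1118 larvae (horizontal axis), both as log10(normalized count + 1). Hexagons are shaded by the number of genes on a log scale, and diamonds mark the 9 genes. The 6 genes near absent in w1118 larvae lie at 43.9 to 278 normalized counts in ecd1 larvae, and the 3 near absent in ecd1 larvae at 49.2 to 77.5 in w1118 larvae.

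Where they were detected, the 9 genes were of low to middle level among all genes. Their mean in the genotype that had them lay at the 35.5th to 51.5th percentile of all genes, and their level per kilobase of exon ran from 33.1 normalized counts for CG33140 to 524 for CR44383. The thresholds divided a continuous range. Just inside them lay CG8508 and CR43276, with a highest value of 4.76 in ecd1 larvae and of 4.72 in w1118 larvae, each in the genotype that lacked the gene. Just outside lay Naa20B, named after a subunit of an amino-terminal acetyltransferase, with 1.89, 4.58 and 1.19 normalized counts in ecd1 larvae and 40.5, 26.0 and 52.5 in w1118 larvae. CG16964 reached 5.95 in ecd1 replicate 3, and CG10588 reached 5.35 in ecd1 replicate 2 and 5.95 in replicate 3. On the other side CG44666 had 84.9, 45.1 and 58.3 in ecd1 larvae and 0, 5.90 and 3.28 in w1118 larvae. CG13443 had 22.6, 35.9 and 25.0 in ecd1 larvae and 2.38, 5.90 and 5.74 in w1118 larvae. CG34458 had 22.6, 49.7 and 38.1 in ecd1 larvae and 7.14, 1.18 and 3.28 in w1118 larvae.

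Apart from CG33140, with 2341 exon bases, the 9 genes had fewer exon bases than the median tested gene. The thresholds were set on counts without correction for exon length. 5 of the 9 consist of 1 exon block, against 17.2% of the 12886 tested genes with an annotation, and their median exon length was 882 bases, against 1798. Pseudogenes made up 2 of the 9 genes and 0.753% of the tested genes. 6 of the 9 overlap another gene of the table, against 47.2% of the tested genes. An annotated transposon insertion lies within 1 kb of 2 of them, against 13.7% of the tested genes: a 1360 element 3 bases from CR43276 and a Quasimodo element 258 bases from asRNA:CR45822. No 2 genes of one direction lie within 50 kb of each other, the smallest gap being 3010817 bases. With 9 genes these shares are descriptions of the genes listed.

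The overlaps are of different kinds, and the libraries did not keep strand (the share of reads on one strand was 0.50 in all 6), so the strand does not tell a gene from its antisense partner. CG43055 lies within CG15431 on the opposite strand and shares no exon base with it. CG15431, a coding gene of unknown function, had 2968, 6754 and 4358 normalized counts in ecd1 larvae, against 218, 251 and 243 in w1118 larvae, a log2 fold change of 4.22 ± 0.28 (SE, limma, adjusted p = 0.00131). Replicate 2 was the highest ecd1 sample for CG15431 as it was for CG43055. asRNA:CR45822 shares 700 of its 882 exon bases with CTCF, which codes for an insulator protein on the opposite strand. CTCF had 2015, 2176 and 1950 normalized counts in ecd1 larvae, against 1634, 1447 and 1382 in w1118 larvae (log2 fold change 0.46, adjusted p = 0.0178). This call was lost without ecd1 replicate 2, w1118 replicate 2 or w1118 replicate 3 (adjusted p = 0.0775, 0.0589 and 0.0705).

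CG31883 and CG33140 lie within introns of large genes on the same strand. CG31883 lies in Oatp30B, an organic anion transporter, which had 3496, 4400 and 4599 normalized counts in ecd1 larvae and 3880, 4254 and 4614 in w1118 larvae (log2 fold change -0.04 ± 0.13, adjusted p = 0.854). CG33140 lies in prickle (pk), a planar polarity gene, which had 654, 1059 and 901 normalized counts in ecd1 larvae and 1084, 592 and 630 in w1118 larvae (log2 fold change 0.21 ± 0.28, adjusted p = 0.592). Neither host gene was called, and the 2 genotypes overlapped for both hosts.

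To see whether the differences stopped at the genes themselves, the nearest tested gene on each side that did not overlap was examined, since the choice of the 9 genes did not use these neighbours. Of the 6 neighbours of the genes near absent in ecd1 larvae, 6 were called, 4 lower and 2 higher in ecd1 larvae, their median log2 fold change being -1.97. Of the 12 neighbours of the genes near absent in w1118 larvae, 7 were called, all higher in ecd1 larvae, with a median of 0.70. Over all tested genes 35.1% were called, 16.0% higher and 19.1% lower, with a median of 0.01. With a change of at least 2-fold asked for besides, 6 of 6 and 5 of 12 neighbours were called, against 19.8% of all tested genes (5.10% higher and 14.7% lower). Of the 12 neighbours, 3 were called without ecd1 replicate 2 and 4 without ecd1 replicate 3. Both neighbours were called in the direction of the gene itself at CG33140, CG8508, BomS4 and CR43276, and 1 of the 2 was at CG43055, CR44383 and asRNA:CR45822. Both were called in the other direction at Ada1-1, and neither was called at CG31883.

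**Figure D3:**
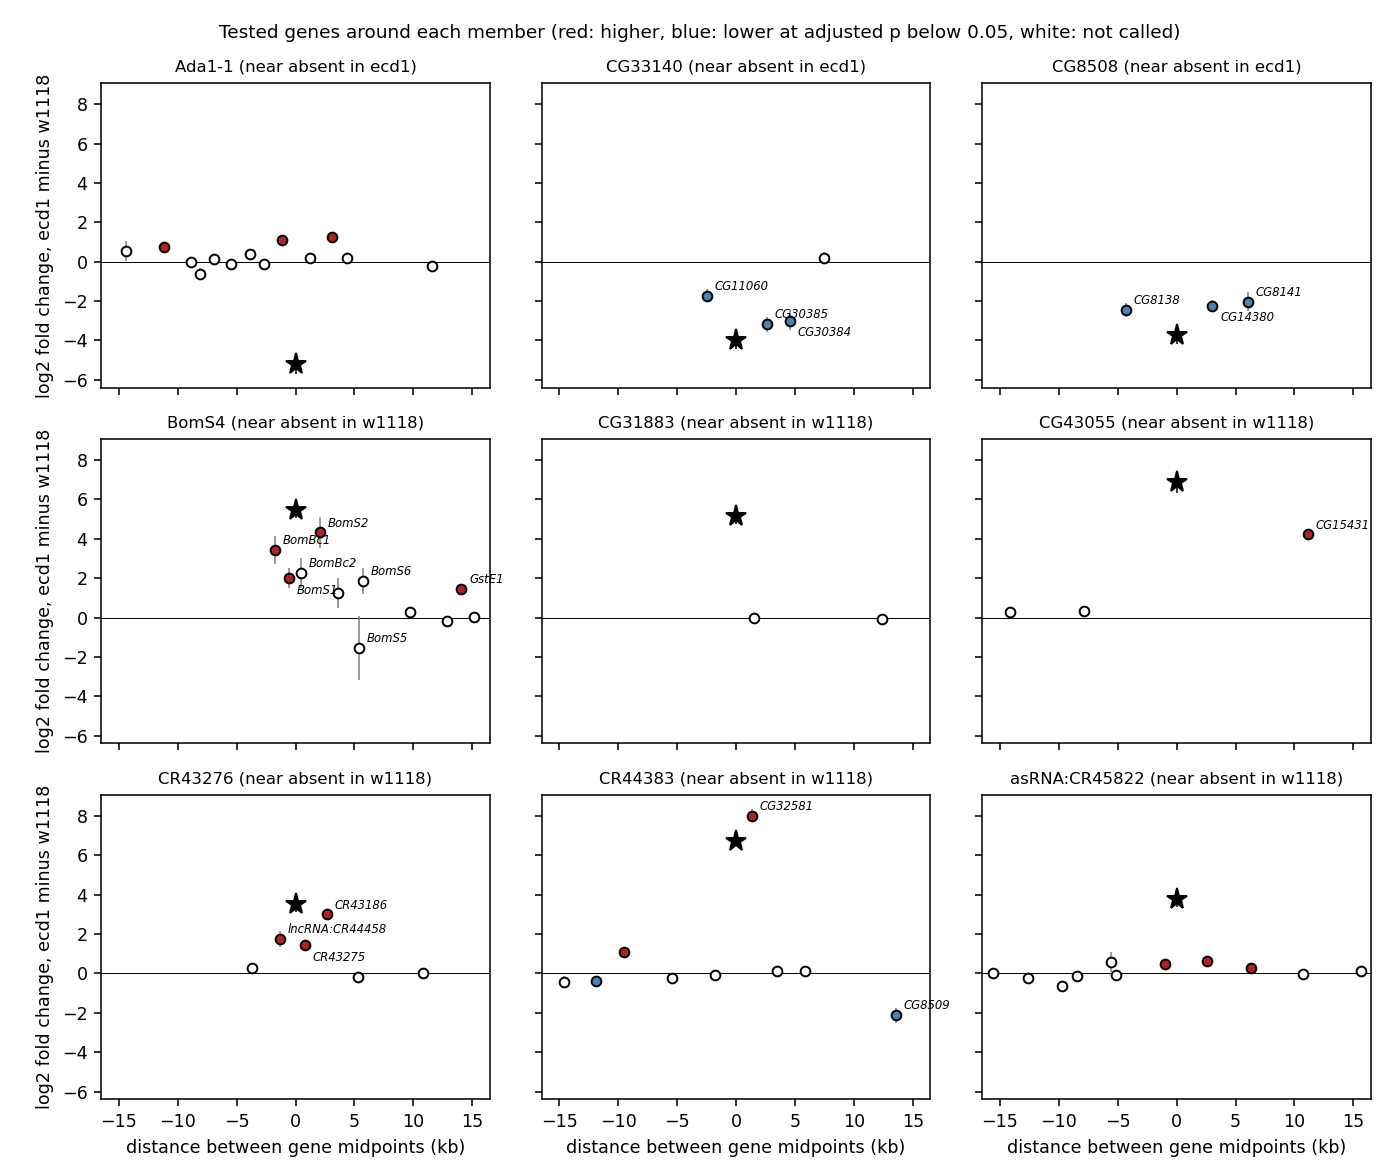
Log2 fold change (ecd1 minus w1118) of tested genes near each of the 9 genes, against the distance between gene midpoints in kilobases. Genes with midpoints beyond the axis, among them CG33298 and CG15432, are not drawn. Stars are the 9 genes, circles are red where called higher, blue where called lower and white where not called, and bars are standard errors. The star of BomS4 is a fitted value that depends on the added count of 1. Around CG8508 and CG33140 the called genes lie at -1.72 to -3.17, and around Ada1-1 they lie above 0.

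At the CG8508 locus every tested gene within 15 kb was lower in ecd1 larvae. CG8138, 3371 bases away, had 23.6, 19.9 and 44.0 normalized counts in ecd1 larvae, against 158, 123 and 189 in w1118 larvae (log2 fold change -2.45 ± 0.36, adjusted p = 0.00520). CG14380, 2022 bases away on the other side, had 17.0, 19.1 and 28.6 in ecd1 larvae, against 101, 83.8 and 127 in w1118 larvae (-2.23 ± 0.31, adjusted p = 0.00482). CG8141, annotated to ubiquitin-dependent protein breakdown, had 28.3, 33.6 and 78.5 in ecd1 larvae, against 152, 129 and 270 in w1118 larvae (-2.02 ± 0.46, adjusted p = 0.0167). The genotypes did not overlap for any of the 3 genes, as was the case for 53.5% of all tested genes (26.7% with the ecd1 samples higher and 26.9% with them lower). The call of CG8141 was lost without ecd1 replicate 1, ecd1 replicate 2 or w1118 replicate 3 (adjusted p = 0.0504, 0.0663 and 0.0539).

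The CG33140 locus had the same form, with 3 called genes beside it. CG11060, 99 bases from CG33140, had 74.5, 103 and 171 normalized counts in ecd1 larvae, against 353, 282 and 478 in w1118 larvae (log2 fold change -1.72 ± 0.35, adjusted p = 0.0114). CG30385, 595 bases away, had 7.54, 3.06 and 5.95 in ecd1 larvae, against 60.7, 50.7 and 54.1 in w1118 larvae (-3.17 ± 0.38, adjusted p = 0.00400). CG30384, the next gene, had 22.6, 9.17 and 30.9 in ecd1 larvae, against 182, 107 and 197 in w1118 larvae (-2.999 ± 0.48, adjusted p = 0.00618). CG33140, CG30385 and CG30384 were once annotated as a single gene under an older symbol, and cDNA clones of CG33140 and CG30385 carry the prefix of the adult testis library of the Drosophila genome project.

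Many testis markers were also lower in ecd1 larvae. Of 18 genes of spermatocytes and spermatids, 12 were lower and 0 higher in ecd1 larvae, beside 19.1% lower and 16.0% higher among all tested genes. Their median log2 fold change was -1.28, and their summed level was 5613 to 8486 normalized counts in ecd1 larvae and 13355 to 20074 in w1118 larvae. The fat body and salivary gland lists had lower medians, -2.84 and -2.95, though limma called 0 of 7 and 1 of 8 of their genes. No marker of the testis list was at 0. betaTub85D, the testis-specific beta-tubulin, had 508, 374 and 1042 normalized counts in ecd1 larvae, against 3453, 2639 and 4449 in w1118 larvae (log2 fold change -2.56, adjusted p = 0.00546). fzo, which fuses mitochondria in spermatids, had 96.2, 101 and 162 in ecd1 larvae, against 553, 392 and 787 in w1118 larvae (-2.24, adjusted p = 0.00509). In both, as in CG33140, CG8508 and the called genes beside them, w1118 replicate 2 was the lowest w1118 sample. That replicate was the lowest for only 6 of the 18 markers, so the order was not general to the list. The share of all genes with this order is not given here. dj, a sperm tail gene, was ordered otherwise, with 144, 71.0 and 161 in ecd1 larvae, against 752, 855 and 1393 in w1118 larvae (-3.02, adjusted p = 0.00417). The number of markers called lower fell to 8 when ecd1 replicate 2 was left out, and was 15 without w1118 replicate 1 or with the replicate block. Of 6 tested genes of the germ line of both sexes limma called 0, with 0 at an unadjusted p below 0.05 and 0 by edgeR or DESeq2. The part of the testis in the low values of CG33140 and CG8508 was not tested, and in whole larvae fewer cells of a type and less RNA per cell cannot be told apart.

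**Figure D4:**
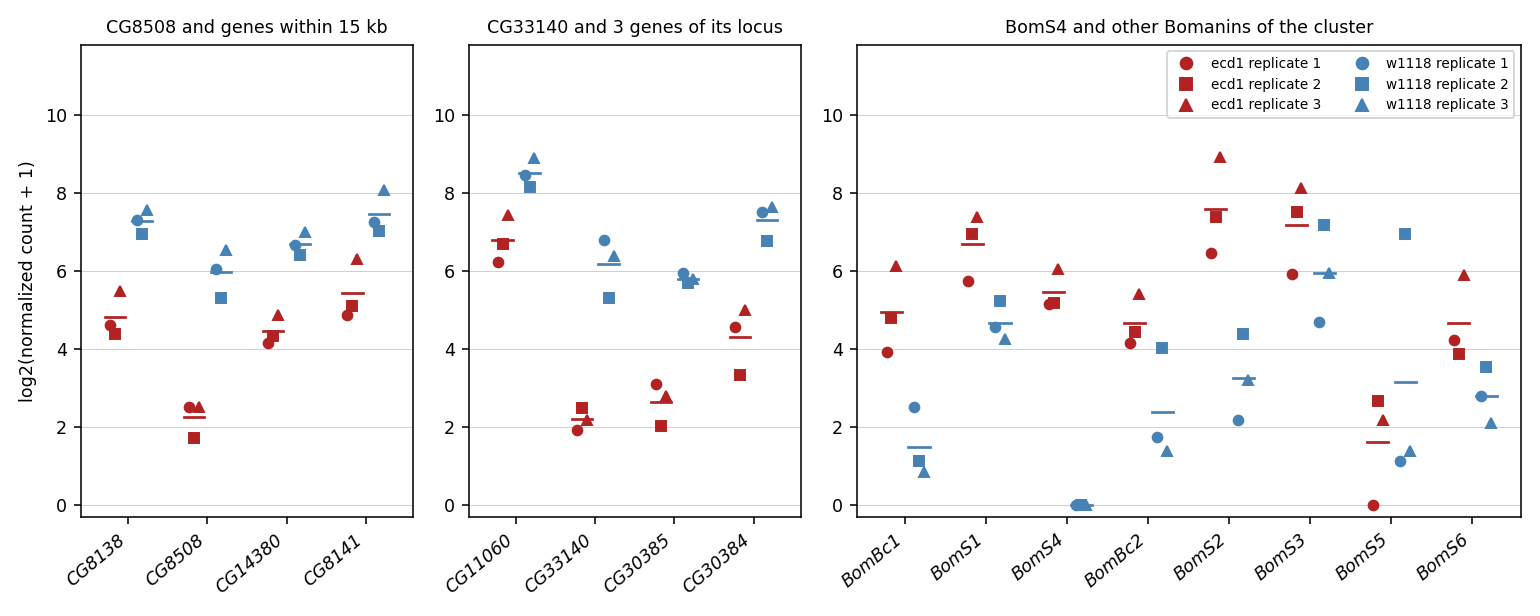
Levels by sample, as log2(normalized count + 1), of CG8508 and CG33140 with genes of their loci and of BomS4 with the other tested Bomanins around it. ecd1 samples are red on the left and w1118 samples blue on the right of each gene, marker shapes give the replicate, and short bars give the mean of the 3 log2 values. The red points lie below the blue ones throughout the first 2 panels, and among the Bomanins BomS5 has its highest value, 121 normalized counts, in w1118 replicate 2.

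At the Ada1-1 locus the neighbours were not lower. Qtzl, 85 bases away, is a chimaeric gene formed in part from Nfs1, and it had 945, 1078 and 797 normalized counts in ecd1 larvae, against 396, 500 and 418 in w1118 larvae (log2 fold change 1.10 ± 0.17, adjusted p = 0.00547). Nfs1, the cysteine desulfurase of iron-sulfur cluster assembly, had 8647, 12011 and 10094 in ecd1 larvae, against 4104, 4208 and 4478 in w1118 larvae (1.25 ± 0.13, adjusted p = 0.00293). Qtzl and Nfs1 can share reads, and how such reads were counted is not known here, so the 2 calls may not be independent. CG6686, the fly form of the spliceosomal protein SART1, was also higher (0.75, adjusted p = 0.00391). The other 10 tested genes within 15 kb were not called. The copy Ada1-2 had 387, 437 and 408 in ecd1 larvae, against 317, 354 and 262 in w1118 larvae (0.41 ± 0.17, adjusted p = 0.0980). CG18787, which shares 66 exon bases with Ada1-1 on the opposite strand, had 480, 489 and 583 in ecd1 larvae and 427, 515 and 429 in w1118 larvae (adjusted p = 0.397).

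Ada1-1 was the one SAGA gene of this kind. Of 17 other genes of SAGA subunits, 5 were higher in ecd1 larvae and 0 lower by limma, edgeR or DESeq2, and their median log2 fold change was 0.12. Gcn5, the acetyltransferase, had 4673, 7548 and 6129 normalized counts in ecd1 larvae, against 3480, 2731 and 2666 in w1118 larvae (log2 fold change 1.03, adjusted p = 0.00918). Ada2b, Spt20, wda and Sgf11 were the others, at 0.38 to 0.66. The share of 5 in 17 stands beside 16.0% higher among all tested genes, and 2 of the 17 were called with the replicate block or with the same total per sample. Without single replicates the number fell to 1 without ecd1 replicate 2 and to 2 without ecd1 replicate 3, w1118 replicate 2 or w1118 replicate 3.

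At the BomS4 locus, which lies in the Bomanin cluster, the neighbours were higher in ecd1 larvae but none was without reads in w1118 larvae. BomS2, 1690 bases away, had 87.7, 165 and 487 normalized counts in ecd1 larvae, against 3.57, 20.1 and 8.20 in w1118 larvae (log2 fold change 4.33 ± 0.77, adjusted p = 0.00789). BomS1, 188 bases away, had 52.8, 123 and 165 in ecd1 larvae, against 22.6, 36.6 and 18.0 in w1118 larvae (2.01 ± 0.49, adjusted p = 0.0201). The call of BomS1 was lost without ecd1 replicate 2, ecd1 replicate 3 or w1118 replicate 3 (adjusted p = 0.0792, 0.0565 and 0.0640). BomBc1 had 14.1, 26.7 and 69.0 in ecd1 larvae, against 4.76, 1.18 and 0.820 in w1118 larvae (3.44 ± 0.71, adjusted p = 0.0120). These Bomanins shared an order of samples, with ecd1 replicate 1 the lowest and replicate 3 the highest of the ecd1 samples.

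BomS4 did not follow w1118 replicate 2, in which several Bomanins had their highest w1118 value. BomS3 had 59.4, 182 and 276 normalized counts in ecd1 larvae and 25.0, 145 and 60.7 in w1118 larvae (adjusted p = 0.248). BomS5 had 0, 5.35 and 3.57 in ecd1 larvae and 1.19, 121 and 1.64 in w1118 larvae (adjusted p = 0.489). BomBc2, whose exons share 88 of the 281 exon bases of BomS4 on the opposite strand, had 17.0, 20.6 and 41.6 in ecd1 larvae, against 2.38, 15.3 and 1.64 in w1118 larvae (2.28 ± 0.76, adjusted p = 0.0571). In all, 3 of 9 other Bomanins tested were higher and 0 lower by limma and by edgeR, 6 were higher by DESeq2 and 5 with the replicate block, beside 16.0% higher among all tested genes. Their median log2 fold change was 1.86. Bomanins are related in sequence and can share reads.

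At the CR43276 locus, a run of annotated pseudogenes, the difference extended along the run. CR43275, 139 bases away, had 3172, 3279 and 1956 normalized counts in ecd1 larvae, against 1022, 1162 and 851 in w1118 larvae (log2 fold change 1.44 ± 0.23, adjusted p = 0.00603). CR43186 had 1991, 1752 and 1356 in ecd1 larvae, against 188, 281 and 173 in w1118 larvae (2.9998 ± 0.235, adjusted p = 0.00147). CR43105 was too low to be tested and had 10.4, 9.93 and 8.33 in ecd1 larvae and 0, 1.18 and 0.820 in w1118 larvae. On the other side lncRNA:CR44458 was higher (1.75 ± 0.42, adjusted p = 0.0197), a call lost without ecd1 replicate 2 (adjusted p = 0.0804). The coding genes at the ends of the run, Pms2, a mismatch repair gene, and dup, a replication licensing gene, were not called (adjusted p = 0.244 and 0.468).

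At the CR44383 locus the nearest neighbour differed on the side of CG32581 and not on that of CG8974. CG32581, 10 bases away on the opposite strand and annotated to ubiquitin-dependent protein breakdown, had 2910, 2761 and 2097 normalized counts in ecd1 larvae, against 10.7, 13.0 and 4.92 in w1118 larvae. Its log2 fold change of 8.02 ± 0.35 (adjusted p = 0.000204) was larger than that of any other neighbour. The w1118 samples of CG32581 lay between 4.92 and 13.0, so that it missed the limit of 5 in 2 samples. CG8974, 448 bases away on the other side, had 8307, 7307 and 6690 in ecd1 larvae and 7666, 7763 and 8154 in w1118 larvae (-0.09 ± 0.10, adjusted p = 0.543). Further out on the side of CG32581, CG8509 was lower in ecd1 larvae (-2.11, adjusted p = 0.00796). On the side of CG8974, mRpS30, a protein of the mitochondrial ribosome, was higher (1.11, adjusted p = 0.00796). Paf-AHalpha, of a platelet-activating factor acetylhydrolase, was lower by a small margin (-0.37, adjusted p = 0.0465), a call lost without any 1 of the 6 samples (adjusted p = 0.0553 to 0.144) and by edgeR (0.0716).

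Around the remaining 3 genes the called genes were the overlapping CG15431 and CTCF, given above, and those named here. The neighbours of CG31883, CG33298 and CG17855, were not called (log2 fold change 0.15 and -0.06, adjusted p = 0.218 and 0.685). Next to CG43055, Dim1 was not called (0.34, adjusted p = 0.0636) and CG15432, 30495 bases away, was higher (0.76 ± 0.22, adjusted p = 0.0354), a call lost without any 1 of the 3 ecd1 replicates (adjusted p = 0.0799 to 0.103), without w1118 replicate 2 (0.0605) or with the same total per sample (0.0521). Beside asRNA:CR45822, pst, an antiviral gene, had 90028, 81992 and 80163 normalized counts in ecd1 larvae, against 42623, 59736 and 60872 in w1118 larvae (0.64 ± 0.16, adjusted p = 0.0230), a call lost without any 1 of the ecd1 replicates (adjusted p = 0.0527 to 0.0709). Sec63, of the endoplasmic reticulum translocon, was higher by 0.29 (adjusted p = 0.0350, but 0.0689 when the replicate block was fitted), and lost its call in 5 of 6 fits without 1 replicate.

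CG43055 was set beside genes named as lectins, since it is annotated by likeness to one. Of 10 such genes tested, 1 was higher and 2 were lower in ecd1 larvae (3 and 2 with the replicate block). Among all tested genes 16.0% were higher and 19.1% lower, and the median log2 fold change of the 10 was 0.21. lectin-24A, which is induced by parasitoid wasps, had 15790, 10523 and 5887 normalized counts in ecd1 larvae, against 453, 917 and 670 in w1118 larvae (log2 fold change 3.92, adjusted p = 0.00259). lectin-28C went the other way, with 77.3, 61.9 and 75.0 in ecd1 larvae, against 1664, 1859 and 1665 in w1118 larvae (-4.58, adjusted p = 0.00012). Both genes were detected in every sample, unlike CG43055. Lectin-galC1, the gene its annotation rests on, did not pass the test (0.07, adjusted p = 0.853).

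Marker genes of the other larval tissues are given beside the 35.1% called among all tested genes. Of 8 midgut genes 1 was lower in ecd1 larvae (2 higher and 1 lower with the replicate block), of 8 salivary gland genes 1 was lower (0 with the block), of 7 haemocyte genes 1 was higher and 1 lower, and of 5 neuronal genes 1 was higher. Of 7 fat body genes limma called 0, with 3 at an unadjusted p below 0.05, 1 by edgeR, 1 by DESeq2 and 2 with the replicate block. Of 5 muscle genes it called 0, with 1 at an unadjusted p below 0.05, 1 by edgeR and 3 by DESeq2. The summed level of the fat body list was 1009370 to 6050940 normalized counts in ecd1 larvae and 6610530 to 9369870 in w1118 larvae. The median log2 fold change was -2.84 for fat body and -2.95 for salivary gland. For midgut, haemocyte, neuronal and muscle genes it was 0.10, 0.29, -0.004 and 0.30. Of 10 tested late-larval ecdysone targets limma called 0, with 1 at an unadjusted p below 0.05, 0 by edgeR, 2 by DESeq2 and 1 with the replicate block. Without w1118 replicate 1, the sample apart in glue genes, 6 genes were near absent in ecd1 larvae and 7 in w1118 larvae. Without ecd1 replicate 2, the sample apart in storage proteins, the numbers were 3 and 6.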

How the data were processed

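Total RNA of whole ecd1 and w1118 larvae was sequenced as 100 bp read pairs on an Illumina HiSeq instrument. Per the study's methods and processing notes, the authors aligned reads with TopHat2 2.0.10 to BDGP6 (dm6), summed them over genes in featureCounts 1.6.4 and deposited, as the signal used here, counts divided by DESeq2 size factors. Strand and multi-mapping settings are not given in the sources used here. Deposited quality values per sample gave the fraction of reads on one strand and the insert size. The authors' own fold changes, p-values and enrichments, which are also deposited, were not used.

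Dividing each column by its smallest step gave whole reads for 100% of values (tolerance 0.05). These reads served for counting intervals, which cover counting error only. Genes with a mean of at least 10 were tested with limma 3.58.1 (R 4.3.3, trend) on log2(normalized count + 1), ecd1 minus w1118, two-sided, with Benjamini-Hochberg adjustment over all 12930 genes and a call at adjusted p below 0.05. Fold changes on this scale understate the change of low genes. edgeR 4.0.16 (TMM, quasi-likelihood) and DESeq2 1.42.0 on the recovered reads were alternatives, as were other pseudocounts, filters and scalings. The fits were tested on simulated data. Same-numbered replicates of both genotypes deviated together (correlations 0.209, 0.232 and 0.225, against -0.274 to 0.0541 for different numbers), so the replicate block is given where it changes a printed call or moves a printed count of calls by over 1.5 times. Positions and overlaps came from Ensembl release 115, which held 17527 of the 17606 identifiers, on the same assembly, and older symbols from RefSeq.

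The members and lists were chosen with earlier results of these data known. Every member was named, with the 3 genes per direction nearest the thresholds on either side, w, ecd and the called neighbours. The SAGA, Bomanin and lectin lists were added after the members were known, and the other genes of the loci and lists were named after their values were seen. No sequence is printed, and a comparison of the members' proteins was not run.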

Additional observations from a re-analysis of the deposited data

How the results depend on the processing

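The number of genes near absent depended on the thresholds. In ecd1 larvae it was 3, and it was 1 with at most 2 and at least 30 normalized counts, 30 with at most 10 and at least 30, 12 with at most 5 and at least 20, and 0 with at most 5 and at least 100. In w1118 larvae it was 6, and 2, 11, 6 and 2 under the same thresholds, and 11 with no symbol left out. Leaving out single replicates gave 3 to 24 genes near absent in ecd1 larvae (24 without ecd1 replicate 3, and 6 or 13 when w1118 replicate 1 or 2 was left out) and 6 to 7 near absent in w1118 larvae. Both numbers were 3 and 6 with the same total per sample. Leaving out single replicates gave 891 to 2437 higher and 1475 to 2741 lower calls over all genes, with the lowest counts without ecd1 replicate 2. edgeR called 2244 higher and 2397 lower, DESeq2 2547 and 2936, and limma with the same total per sample 1480 and 2749. With the replicate block, which took account of the pairing, 1999 were higher and 2718 lower, and of the neighbours 6 of 6 and 7 of 12 were called, so apart from Sec63 it changed no call of a tested gene within 15 kb of the 9 genes, nor of a nearest neighbour further away.

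The 6 called neighbours of the genes near absent in ecd1 larvae stayed 6 under every alternative fit and every left-out replicate. With overlapping genes kept, 6 of 8 were called, with a median log2 fold change of -0.77. Within 10 kb 9 of 16 were called, 6 lower and 3 higher, and the median was -0.125, against -1.97 for the nearest neighbours. The 7 of 12 on the other side were 3 to 8 without single replicates, 5 to 8 under the other fits and the 2-fold limit, 9 of 16 with overlapping genes kept and 10 of 30 within 10 kb. CG17855 had a log2 fold change of -0.06, and of -0.1188 to 0.0136 without single replicates, with no call in any. The cause of these moves was not tested. Protein relatives of the members were not analysed here, so those alternatives were not run. Depth limits the low side most: 1 to 6 reads in a library separate many values from 0.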

Other observations

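With looser thresholds the genes near absent in ecd1 larvae grew in number more than those near absent in w1118 larvae. With at most 10 and at least 30 normalized counts, 27 genes joined the 3 of the first kind and 5 joined the 6 of the second. Tim17a1, ND-51L2 and Ctr1C are given as examples chosen after their values were seen. Tim17a1, named after the inner membrane translocase, had 1.89, 2.29 and 5.95 normalized counts in ecd1 larvae, against 57.1, 30.7 and 83.6 in w1118 larvae. ND-51L2, named after a subunit of complex I, had 4.71, 3.82 and 7.14 in ecd1 larvae, against 73.8, 34.2 and 95.1 in w1118 larvae. Ctr1C, a copper transporter gene, had 1.89, 3.06 and 7.14 in ecd1 larvae, against 66.6, 31.8 and 68.8 in w1118 larvae. w1118 replicate 2 was the lowest w1118 sample in 23 of the 27 genes, Tim17a1, ND-51L2 and Ctr1C among them. The share of all genes with that order is not given here, so the count is a description only. These genes were picked by the same contrast, so their values are given with no test.

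Among the 5 genes on the other side png, a kinase gene needed for the first divisions of the embryo, had 70.7, 72.6 and 63.1 normalized counts in ecd1 larvae, against 8.33, 5.90 and 5.74 in w1118 larvae.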
